A study of Rattus norvegicus with 12 samples.

Results

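Integrins, cadherins and claudins are surface proteins by which cells hold on to the matrix and to each other, and their genes were examined in RNA-seq libraries of rat left atrium. Members were the genes with counts whose symbol is Itga or Itgb, Cdh or Cldn followed by a number or, for integrin alpha genes, a letter. The rule gave 72 of 21239 genes, namely 18 integrin alpha genes, 8 integrin beta genes, 23 cadherins and 23 claudins. There were 12 libraries, 3 in each of 4 groups, and each was made from the left atrium of a separate male rat that was 14 weeks old at purchase. The WKY group held Wistar-Kyoto rats, the normotensive control strain, and the SHR group held spontaneously hypertensive rats, both given saline at 7.5 ml/kg/day for 4 weeks. The ARB group held SHRs given valsartan, an angiotensin receptor blocker, at 30 mg/kg/day. The ARNI group held SHRs given sacubitril/valsartan, which adds a neprilysin inhibitor, at 60 mg/kg/day, and both drugs were also given for 4 weeks. In 6 libraries, those of WKY and SHR, the strain words in the title contradict the library name, and the name was followed. For ARB and ARNI the labels give WKY as the strain and SHR as the phenotype, and these rats were taken as SHRs.

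An integrin is a pair of 1 alpha and 1 beta chain that spans the membrane and links matrix proteins such as laminin, fibronectin and collagen to talin and actin inside the cell. Classical cadherins bind the same cadherin on a neighbouring cell and are anchored to actin through catenins, and in heart muscle N-cadherin (Cdh2) holds the intercalated discs together. Claudins form the strands of tight junctions, which seal the spaces between the cells of epithelia, mesothelium and endothelium.

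The libraries held between 11252361 and 15823525 counts, and levels are given as CPM, a gene's count scaled to a common library total. They are not divided by gene length, so they are compared between libraries and not between genes. The labelled tissue was checked with 8 atrial and 5 ventricular marker genes. In the 3 WKY libraries the atrial list summed to between 119 and 330 CPM and the ventricular list to between 43273 and 43595 CPM. The atrial genes Bmp10, Mybphl and Sln were at most at 0.444 CPM there, while Nppa reached 276 CPM and Kcnj3 was at 41.3 to 52.9 CPM. In the SHR group the atrial sum was 27833 to 77389 CPM and the ventricular sum 371 to 9833 CPM. The difference between the mean log2(CPM + 1) of the atrial and the ventricular list, called the chamber score here, was -7.17, -7.31 and -7.29 in WKY replicates 1, 2 and 3. It was 7.36, 0.43 and 6.21 in SHR, 6.81, 6.74 and 0.60 in ARB and 6.89, -6.36 and 4.77 in ARNI. SHR 2 and ARB 3 held both sets of markers and ARNI 2 resembled the WKY libraries, so strain and chamber composition cannot be told apart between SHR and WKY. ARB 2 and ARNI 3 also held adipocyte genes (list sums of 361 and 391 CPM), and WKY 3 held genes of lung epithelium. In tissue RNA, fewer cells of a type and less RNA per cell cannot be told apart.

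All 18 integrin alpha and 8 integrin beta genes had at least 10 reads in some library, as did 18 of the 23 cadherins and 9 of the 23 claudins. Cldn16, Cldn17 and Cldn24 had no read, and 19 members in all stayed under 10 reads in every library. Levels above 300 CPM were reached by Itgb1, the beta chain shared by most integrins, Itga7, the laminin-binding alpha chain of muscle, and Cdh2. Itgb1 ranged from 307 CPM in ARB 3 to 477 CPM in ARNI 3, and Cdh2 from 325 CPM in ARB 3 to 499 CPM in WKY 2. Both stayed within a narrow span over the 12 libraries, whereas Cldn1 spanned 0.393 to 86.3 CPM and Cdh22 spanned 0.0632 to 22.3 CPM.

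**Figure D1:**
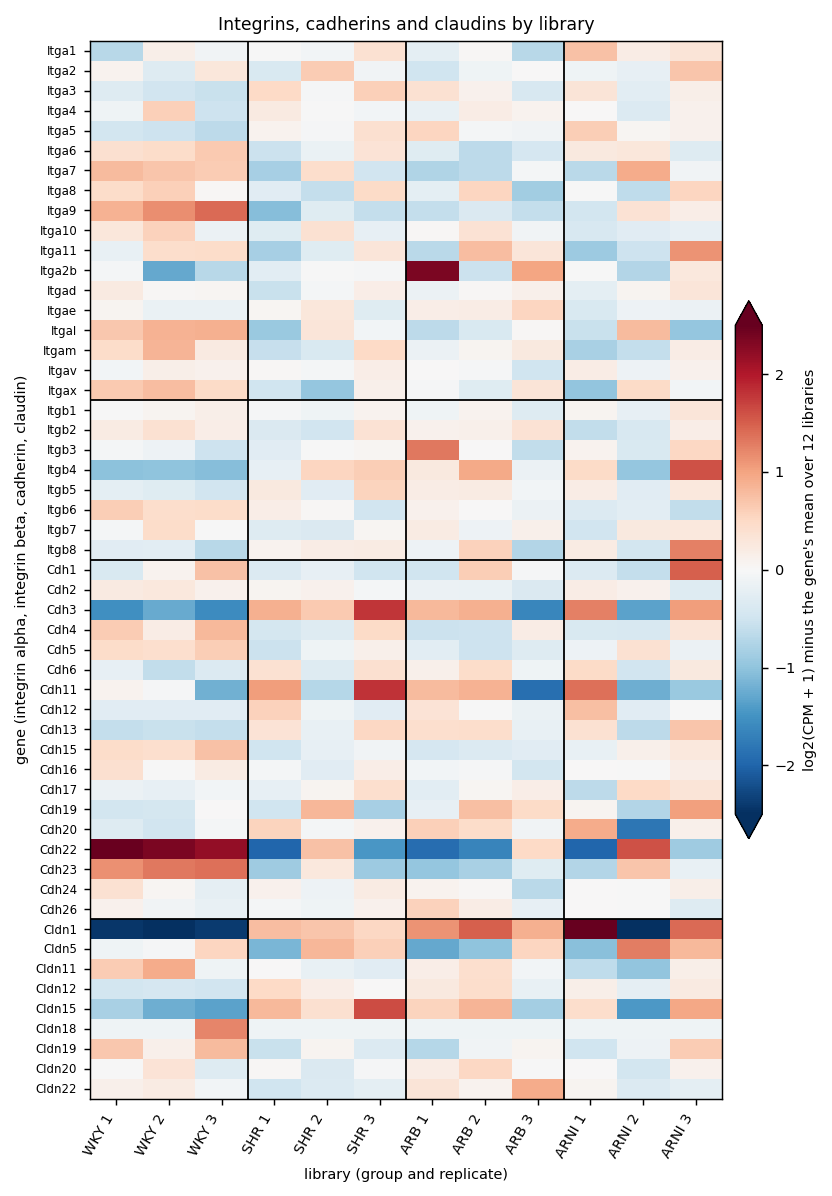
Heatmap of the 53 members with at least 10 reads in some library (rows, by family) over the 12 libraries (columns, by group and replicate). Colour is log2(CPM + 1) minus the gene's mean over 12 libraries; Cldn1 and Cdh22 show the strongest contrasts, and ARNI 2 resembles the WKY columns for Cldn1, Cdh3, Cdh22 and Cdh23.

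The first comparison addressed how the hypertensive strain differed from its normotensive control. Of 72 members, 46 had enough reads to be tested by edgeR's quasi-likelihood test, and 8 were called, which means that the level differed at least by a log2 fold change of 1 in either direction and that the p adjusted over all genes (Benjamini-Hochberg) did not exceed 0.05. Called higher in SHR were Cldn1, Cdh3, Cldn15 and Itgb4, which is 8.70% of the members tested beside 5.54% of all 13794 genes tested. Called lower were Itga9, Cdh23, Itgax and Cdh15, also 8.70%, beside 3.35% of all genes. By adjusted p alone 14 members passed (30.4%, beside 20.6% of all genes). The 3 SHR values did not overlap the 3 WKY values in 23 members (50.0%, beside 49.5% of all genes), so this share was near the background. By family, 2 claudins rose, 1 cadherin rose and 2 fell, 2 integrin alpha genes fell and 1 integrin beta gene rose. The median log2 fold change was -0.19 over the 46 members and 0.01 over all genes tested. With SHR 2 left out, 14 members were called, which added Cdh11 and Cdh6 as higher and Cdh22, Cldn19, Itga7 and Itgal as lower. With WKY 1, WKY 2, WKY 3 or SHR 1 left out, 4, 3, 3 and 5 were called, and Cldn1, Cdh3 and Itga9 were among them each time. Calls over all genes moved the same way. Without SHR 2 they were 1109 higher and 1096 lower of 14035, beside 764 and 462 of 13794 with it. Without WKY 1, WKY 2 or WKY 3 they were 290 and 103, 256 and 97, and 253 and 95. Without SHR 1 they were 415 and 162, and these fits tested 14012 to 14149 genes.

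**Figure D2:**
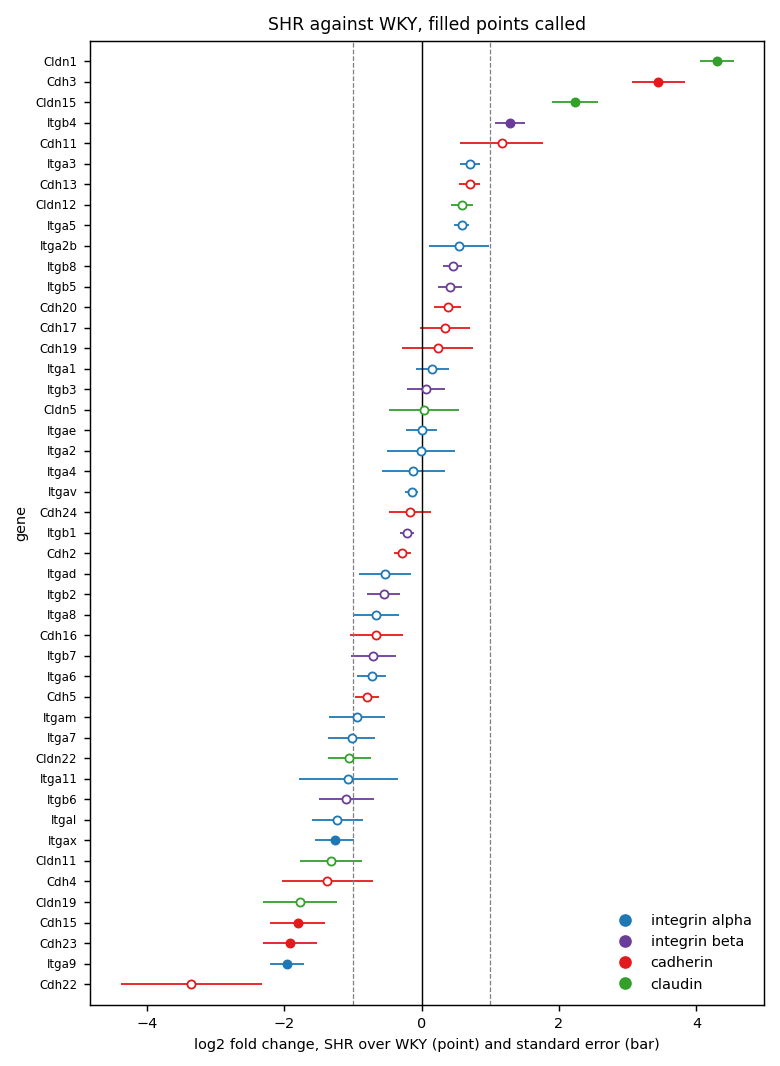
Log2 fold change of SHR over WKY for the 46 members tested (points) with its standard error (bars), coloured by family, with dashed lines at 1 and -1. Filled points are the 8 called members, with Cldn1 at 4.30 the highest; Cdh22 at -3.36 is the lowest but has an SE of 1.03 and was not called.

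Cldn1 encodes claudin-1, a sealing claudin of skin and other barrier epithelia. It was at 0.682, 0.435 and 0.711 CPM in WKY 1, 2 and 3 and at 14.4, 13.6 and 11.9 CPM in SHR 1, 2 and 3. Every SHR library was far above every WKY library, and the 3 SHR values lay close together. The log2 fold change was 4.30 (SE 0.25, edgeR adjusted p = 0.00141), which is 19.6-fold. Cldn15 encodes a pore-forming claudin best known from the intestine, and it was at 5.58, 3.92 and 3.56 CPM in WKY and at 19.1, 14.2 and 34.8 CPM in SHR. Again the groups did not overlap, with SHR 3 the highest. Its log2 fold change was 2.23 (SE 0.34, adjusted p = 0.0105). Its counts were not whole in any library, which means that reads were divided between it and other genes.

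Cdh3 encodes P-cadherin, a classical cadherin of epithelia. It was at 0.767, 1.13 and 0.711 CPM in WKY and at 8.43, 7.02 and 16.5 CPM in SHR, with a log2 fold change of 3.44 (SE 0.39, adjusted p = 0.00489). The order of the SHR libraries was the same as for Cldn15, with SHR 3 highest and SHR 2 lowest. Itgb4, the beta chain that pairs with Itga6 as the laminin receptor of hemidesmosomes, was at 24.5, 24.8 and 24.0 CPM in WKY and at 44.0, 74.2 and 78.04 CPM in SHR. Its log2 fold change was 1.28 (SE 0.21, adjusted p = 0.0134), whereas its partner Itga6 had a negative log2 fold change.

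Most markers of the mesothelium and epicardium, the thin layer that covers the heart, were also higher in SHR. In 8 of 9 genes of that list (among them Msln, Upk3b, Lrrn4 and Krt19, but not Wt1) every SHR library was above every WKY library. The list summed to between 72.3 and 98.8 CPM in WKY and to between 274 and 579 CPM in SHR, with SHR 3 again highest and SHR 2 lowest, and none of its 9 genes was at 0. Cldn15 and Cdh3 shared this order of the SHR libraries, whereas Cldn1 was lowest in SHR 3 and Itgb4 in SHR 1. The part of mesothelial cells in the differences of Cldn1, Cldn15, Cdh3 and Itgb4 was not tested. In ARB 3, where the mesothelial sum was 92.3 CPM and thus within the WKY range, Cdh3 was at 0.634 CPM and Cldn15 at 5.43 CPM. Cldn1 and Itgb4 were at 15.8 and 45.8 CPM there, above all WKY libraries.

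Among the genes called lower, Itga9 encodes an alpha chain that pairs with Itgb1 and binds tenascin, osteopontin and Vcam1. It was at 69.9, 86.2 and 102 CPM in WKY and at 17.6, 30.3 and 24.8 CPM in SHR, a log2 fold change of -1.96 (SE 0.25, adjusted p = 0.00662). Cdh23, the cadherin of hair-cell tip links in the ear, was at 24.1, 27.3 and 28.3 CPM in WKY and at 5.15, 12.7 and 5.08 CPM in SHR (log2 fold change -1.92, SE 0.40, adjusted p = 0.0227). SHR 2, which held ventricular markers, was the highest SHR library for both genes. Cdh15, the M-cadherin of skeletal muscle, was barely read, at 1.45, 1.39 and 1.96 CPM in WKY and 0.267, 0.552 and 0.677 CPM in SHR (log2 fold change -1.81, SE 0.40, adjusted p = 0.0274). Its largest count in any library was 22 reads.

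Itgax encodes CD11c, which with Itgb2 forms a receptor of dendritic cells and macrophages. It was at 13.7, 15.0 and 12.1 CPM in WKY and at 5.68, 3.82 and 9.27 CPM in SHR, a log2 fold change of -1.27 (SE 0.28, adjusted p = 0.0268). The other leukocyte integrins were not called by edgeR with all 6 libraries. Itgal (CD11a) was at 9.38, 10.9 and 10.9 CPM in WKY and at 2.41, 7.02 and 5.15 CPM in SHR, with no overlap (log2 fold change -1.23, SE 0.37, adjusted p = 0.0584). DESeq2 called Itgal lower (log2 fold change -1.25, adjusted p = 0.0115), and edgeR called Itgam lower without SHR 3. Itgam (CD11b) was at 3.29 to 5.57 CPM in WKY and 1.47 to 4.16 CPM in SHR, and their common partner Itgb2 was at 8.36 to 9.87 CPM and 5.04 to 9.71 CPM. Ptprc, the pan-leukocyte gene Cd45, was at 12.5 to 16.6 CPM in WKY and 3.23 to 7.52 CPM in SHR, the 1 gene of the 4 in the leukocyte list whose groups did not overlap. That list summed to between 40.8 and 61.5 CPM in WKY and to between 21.7 and 50.8 CPM in SHR. The macrophage list summed to 114 to 165 CPM and 55.1 to 166 CPM, and 2 of its 6 genes were lower in every SHR library. These were Mrc1 (21.5 to 26.2 CPM in WKY, 6.89 to 17.7 CPM in SHR) and Cd163 (24.1 to 35.9 and 9.42 to 22.0 CPM). The part of leukocytes in the Itgax difference was not tested. Itgax also had values that were not whole in every library.

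Another 6 members passed the adjusted p with a smaller change. Higher in SHR were Itga5, the fibronectin receptor chain (118 ± 7.92 CPM in WKY and 194 ± 30.6 CPM in SHR, SD, n = 3, log2 fold change 0.58, adjusted p = 0.0186) and Itga3, a laminin receptor chain (35.9 ± 3.03 and 64.6 ± 13.9 CPM, 0.71, adjusted p = 0.0220). Cdh13, the membrane-anchored T-cadherin that binds adiponectin, was at 80.9 ± 1.40 CPM in WKY and 145 ± 34.2 CPM in SHR (log2 fold change 0.70, adjusted p = 0.0247). Cldn12 was at 20.1 ± 0.488 and 33.001 ± 6.05 CPM (log2 fold change 0.58, adjusted p = 0.0433). Lower in SHR was Cdh5, the VE-cadherin of endothelial junctions, at 176, 172 and 198 CPM in WKY and at 87.4, 120 and 141 CPM in SHR (log2 fold change -0.79, SE 0.17, adjusted p = 0.0265). The sum of 7 endothelial marker genes, of which Vwf was the most abundant, was 866 to 935 CPM in WKY and 782 to 1405 CPM in SHR. Of these genes only Kdr separated the groups, at 121 to 158 CPM in WKY and 85.1 to 118 CPM in SHR, and the part of endothelial cells in the Cdh5 difference was not tested. Itga6, a laminin receptor chain, was at 134, 141 and 161 CPM in WKY and at 70.2, 91.1 and 130 CPM in SHR (log2 fold change -0.73, SE 0.21, adjusted p = 0.04995).

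Genes known from the junctions and matrix contacts of heart muscle and endothelium did not all pass. Cdh22, a cadherin first described in pituitary and brain, had the most negative log2 fold change of all members, at -3.36 (SE 1.03, adjusted p = 0.0607). It was at 22.3, 20.7 and 18.3 CPM in WKY, 0.0669 CPM (1 read) in SHR 1, 6.03 CPM in SHR 2 and 0.542 CPM in SHR 3, so SHR 2 made the spread within its group wide. Itga7 was at 467, 440 and 422 CPM in WKY and at 152, 366 and 193 CPM in SHR (log2 fold change -1.02, SE 0.34, adjusted p = 0.0761), and again SHR 2 was nearest to WKY. DESeq2 called Itga7 lower (log2 fold change -1.03, adjusted p = 0.0109). Cdh2 was at 479 ± 24.9 CPM in WKY and 430 ± 23.6 CPM in SHR (SD, n = 3, log2 fold change -0.29, SE 0.12, adjusted p = 0.135). Itgb1 was at 403 ± 20.3 and 380 ± 27.9 CPM (-0.22, SE 0.10, adjusted p = 0.161) and Itgav at 95.0 ± 7.22 and 94.6 ± 7.25 CPM (-0.14, SE 0.09, adjusted p = 0.286). Cdh11, a cadherin of fibroblasts and bone-forming cells, was at 59.2, 54.4 and 23.5 CPM in WKY and at 116, 33.2 and 197 CPM in SHR, and the groups overlapped (log2 fold change 1.17, SE 0.60, adjusted p = 0.196). Cldn5, the sealing claudin of endothelium, was at 15.9, 17.0 and 25.3 CPM in WKY and at 7.29, 31.6 and 26.7 CPM in SHR (log2 fold change 0.04, SE 0.51, adjusted p = 0.964). SHR 1 lay below all WKY libraries and the other two SHR libraries above them.

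**Figure D3:**
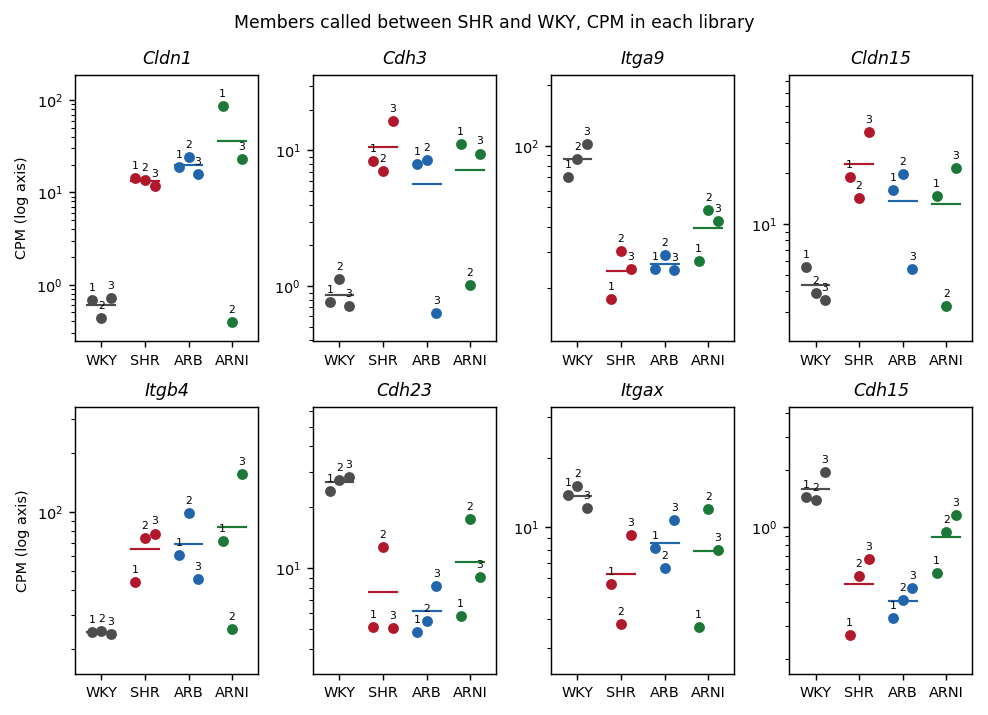
CPM (log axis) of the 8 members called between SHR and WKY in every library, with 1 point per library labelled by replicate and a line at each group's mean. The WKY and SHR points do not overlap in any panel, and ARNI 2 lies at or near the WKY level for Cldn1, Cdh3, Cldn15 and Itgb4.

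For the 4 called members with the smallest p (Cldn1, Cdh3, Itga9 and Cldn15), the 250 bases before the gene's start were looked up in RefSeq's promoter sequences (build GRCr8) to show the sequence beside which these levels were measured, and 3 were found. Each is printed 5′ to 3′ on the gene's strand, with capitals for any match to the motifs searched on both strands, which were GGAATG, the M-CAT element of TEAD factors, CACCTG, the E-box bound by Snail and ZEB repressors, AGATAA, a site of the cardiac GATA factors, and the core promoter box TATAAA. The Cldn1 promoter is on the plus strand at chr11:87926126-87926375, the Itga9 promoter on the plus strand at chr8:127185039-127185288 and the Cldn15 promoter on the minus strand at chr12:25343626-25343875.
Cldn1: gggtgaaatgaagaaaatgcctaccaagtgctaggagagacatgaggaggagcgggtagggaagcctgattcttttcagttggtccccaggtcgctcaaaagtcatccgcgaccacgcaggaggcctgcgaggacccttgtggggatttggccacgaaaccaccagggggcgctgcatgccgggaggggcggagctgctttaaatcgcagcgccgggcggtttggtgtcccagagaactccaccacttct
Itga9: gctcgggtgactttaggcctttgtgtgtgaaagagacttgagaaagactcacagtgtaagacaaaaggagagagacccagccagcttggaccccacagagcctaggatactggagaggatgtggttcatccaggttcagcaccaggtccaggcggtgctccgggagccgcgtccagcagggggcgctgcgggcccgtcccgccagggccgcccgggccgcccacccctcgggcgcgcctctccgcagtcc
Cldn15: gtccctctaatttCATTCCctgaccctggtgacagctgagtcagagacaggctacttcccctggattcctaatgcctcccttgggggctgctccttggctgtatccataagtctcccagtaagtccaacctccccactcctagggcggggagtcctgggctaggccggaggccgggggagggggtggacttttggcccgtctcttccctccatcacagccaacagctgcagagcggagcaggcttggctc
The Cldn15 window held 1 match, to M-CAT on the opposite strand, and the windows of Cldn1 and Itga9 held none, which says only that these letters do not stand in them. M-CAT letters were present in 11.8% of all 27457 promoters of this length and in 7 of the 51 member promoters with an entry (13.7%). The Snail and ZEB letters were in 15.6% of all and in 9 of 51, the GATA letters in 10.05% and 4 of 51, and the TATA letters in 13.1% and 3 of 51. The GC content was 59.2% for Cldn1, 65.2% for Itga9 and 60.8% for Cldn15, beside a median of 52.0% over all promoters, and the windows held 14, 16 and 5 CG dinucleotides beside a median of 6.

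Because the chamber score differed among the 9 libraries of SHRs, each gene was also fitted against the score within SHR, ARB and ARNI, with group as a factor and without the WKY libraries. The slope is the log2 change per unit of score, and a positive slope means a higher level in libraries with more atrial and less ventricular markers. Of 46 members tested 12 had a slope at an edgeR adjusted p of at most 0.05. There were 6 positive (13.0% of the members tested, beside 11% of 14278 genes) and 6 negative (13.0%, beside 13.6%), so the members' shares were near those of all genes. ARNI 2 was the only library with a score below 0, and without it 5 of 49 members passed. Of these, Cdh11, Cdh22, Cdh23 and Itga7 had passed with it and Itga3 had not. Slopes over all genes also became fewer, with 480 positive and 871 negative of 14564 without ARNI 2, beside 1565 and 1941 of 14278 with it.

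Negative slopes were those of Itga7, Cdh23, Cdh22, Itgal, Itga9 and Cldn5. Itga7 was at 512 CPM in ARNI 2, 366 CPM in SHR 2, 261 CPM in ARB 3 and 255 CPM in ARNI 3, and at 152, 193, 160, 172 and 169 CPM in SHR 1, SHR 3, ARB 1, ARB 2 and ARNI 1. The 4 libraries with the lowest scores were thus the 4 highest, with a slope of -0.14 (SE 0.01, adjusted p = 0.00075). Cdh22 followed the same order, at 11.8 CPM in ARNI 2, 6.03 CPM in SHR 2, 4.99 CPM in ARB 3 and 1.29 CPM in ARNI 3 and at 0.0632 to 0.542 CPM in the other 5 libraries (slope -0.52, SE 0.08, adjusted p = 0.00385). Cdh23 had a slope of -0.14 (adjusted p = 0.00224), with 17.5 CPM in ARNI 2 and 12.7 CPM in SHR 2 at its top. Itga9 had a small slope of -0.06 (adjusted p = 0.0376), which passed in 3 of 9 fits with 1 library left out. Its 9 SHR-strain values, 17.6 to 48.5 CPM, all lay below the lowest WKY value of 69.9 CPM, also in ARNI 2, where the score was near that of WKY.

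Cldn5 fell into separate levels. It was at 7.29, 6.48, 8.12 and 7.90 CPM in SHR 1, ARB 1, ARB 2 and ARNI 1, the 4 libraries with the highest scores. It was at 31.6, 26.7, 25.4, 43.1 and 31.2 CPM in SHR 2, SHR 3, ARB 3, ARNI 2 and ARNI 3, so no SHR-strain library lay between 8.12 and 25.4 CPM (slope -0.18, SE 0.05, adjusted p = 0.0393). The Cldn5 slope passed in 2 of 9 fits with 1 library left out. SHR 3, with a score of 6.21, was on the high side. The endothelial marker sum, to which Vwf gave the most, took the opposite order in part. It was at 1202 to 1626 CPM in the 4 low libraries and 629 to 1405 CPM in the 5 high ones. Kdr of the same list did not take that order, at 83.5 to 96.2 CPM in the 4 low libraries and 85.1 to 153 CPM in the 5 high ones. Itgal had a slope of -0.16 (adjusted p = 0.00671), and ARNI 2 was its highest SHR-strain library at 10.1 CPM, where Ptprc was at 5.35 CPM.

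Positive slopes were those of Cdh13, Cdh20, Cldn15, Cdh6, Cdh3 and Cdh11. Cdh3 was at 0.634 CPM in ARB 3 and 1.02 CPM in ARNI 2 and at 7.02 to 16.5 CPM in the other 7 libraries (slope 0.25, SE 0.06, adjusted p = 0.0190). Cldn15 had its lowest values in the same libraries, 5.43 and 3.25 CPM, and 14.2 to 34.8 CPM in the others (slope 0.18, SE 0.04, adjusted p = 0.0114). The mesothelial sum was also lowest there, at 92.3 and 56.3 CPM, and 255 to 579 CPM in the other 7. Its part in the slopes of Cdh3 and Cldn15 was not tested. Cdh13 ranged from 77.1 CPM in ARNI 2 to 196 CPM in ARNI 3 (slope 0.08, adjusted p = 0.00430). Cdh20 was at 6.70 CPM in ARNI 2 and 24.4 to 50.3 CPM elsewhere (slope 0.15, adjusted p = 0.0103), while the WKY libraries, with their low scores, had 18.4 to 25.1 CPM. Cdh6 stayed under 2 CPM (slope 0.15, adjusted p = 0.0176), and Cdh11 ranged from 14.3 CPM in ARB 3 to 197 CPM in SHR 3 (slope 0.21, adjusted p = 0.0460). The Cdh11 slope passed in 2 of 9 fits with 1 library left out.

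Cldn1 did not pass, with a slope of 0.25 (SE 0.10, adjusted p = 0.111). It was at 0.393 CPM in ARNI 2, as low as in WKY, but at 13.6 and 15.8 CPM in SHR 2 and ARB 3, where the score was near 0. In all 4 libraries with a score below 0 it was under 1 CPM, and in all 8 with a score above 0 it was over 11 CPM. When the score was added to a fit of all 12 libraries, the log2 fold change of Cldn1 between SHR and WKY was 1.44 (SE 1.44, adjusted p = 0.626). That of Itga9 was -1.26 (adjusted p = 0.0826). No member was called in that fit, beside 79 genes called higher and 18 lower of 14452. That fit rests on ARNI 2, the only SHR-strain library near the WKY scores.

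**Figure D4:**
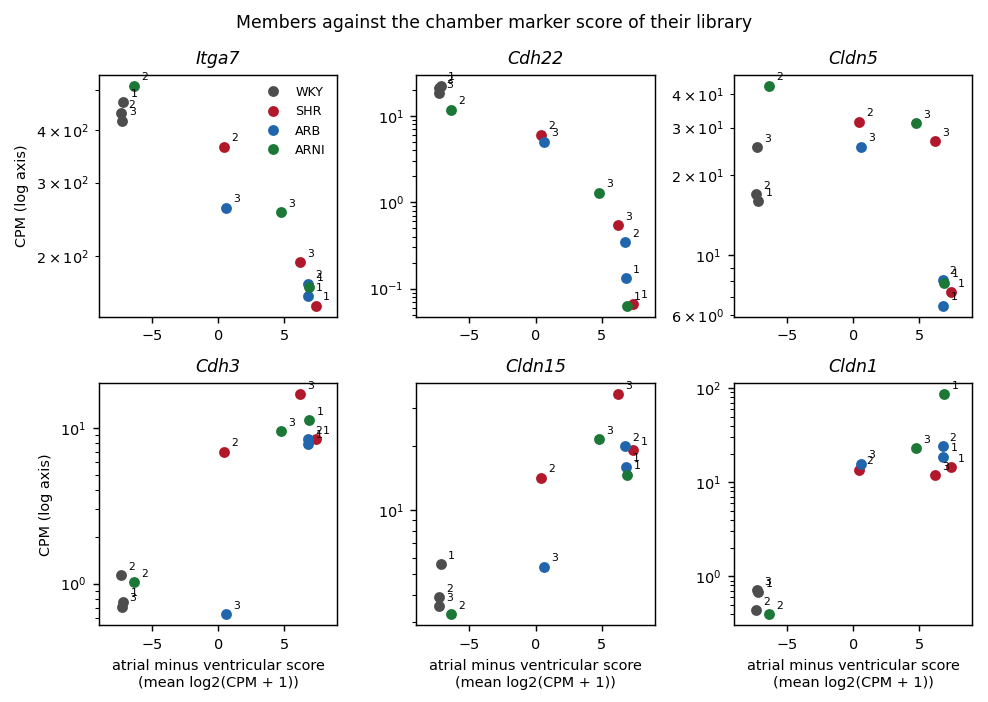
CPM (log axis) of 6 members against the chamber score (difference of mean log2(CPM + 1) of the atrial and ventricular marker lists), 1 point per library, coloured by group and labelled by replicate. Itga7 and Cdh22 fall with the score, Cdh3 and Cldn15 are low in ARB 3 and ARNI 2, and Cldn5 is low in the 4 libraries with the highest score.

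The drug groups were compared with saline-treated SHRs and with each other. No member was called in ARB against SHR (44 tested, beside 0% of 13979 genes), in ARNI against SHR (44 tested, beside 0% of 13955 genes) or in ARNI against ARB (45 tested, beside 0% of 13948 genes). At an unadjusted p under 0.05, edgeR gave 2, 0 and 3 members. DESeq2 gave 3, 1 and 4 of 64, 67 and 66 tested, and it called no member either. With the replicate number as a block, ARNI against SHR gave 5 of 44 at that unadjusted p and again no call. The shares of all genes at that unadjusted p were not counted, so these numbers are not a result about the members. All 3 drug comparisons share libraries, since SHR enters the first and second, so each is described by its own values.

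In ARB against SHR, Cldn22 and Cldn1 were the members with the smallest p. Cldn1 was at 18.8, 24.3 and 15.8 CPM in ARB beside 14.4, 13.6 and 11.9 CPM in SHR, without overlap (log2 fold change 0.58, SE 0.18, adjusted p = 0.9999). Cldn22 was at 1.72, 1.31 and 3.09 CPM beside 0.535, 0.710 and 0.813 CPM, also without overlap (log2 fold change 1.61, SE 0.46, adjusted p = 0.9999). WKY, at 1.07 to 1.48 CPM of Cldn22, lay above all SHR values and overlapped ARB. Itga2b, the platelet alpha chain of the fibrinogen receptor, was at 24.2, 2.41 and 8.80 CPM in ARB and at 3.14 to 3.94 CPM in SHR (log2 fold change 1.74, SE 0.75, adjusted p = 0.9999). Its partner Itgb3 was at 8.53 CPM in ARB 1, and at 1.51 to 4.48 CPM in the other 11 libraries. The platelet gene Pf4 was at 20.5 CPM in ARB 1 and 21.7 CPM in ARB 3, and at 1.83 to 6.30 CPM in the other 10 libraries. Gp1bb, the most abundant gene of the platelet list, had another order, at 47.5, 29.5 and 26.5 CPM in ARB 1, 2 and 3 and 32.8 CPM in SHR 1. Gp9 and Ppbp reached at most 0.951 and 0.794 CPM. The list of 4 genes summed to 69.6, 31.9 and 49.5 CPM in ARB and to 17.3 to 34.8 CPM in SHR. The part of platelets in the Itga2b values was not tested. Itga1, a collagen receptor chain, and Cldn11, a claudin of myelin and testis, had log2 fold changes of -0.38 (SE 0.20, adjusted p = 0.9999) and 0.65 (SE 0.35, adjusted p = 0.9999).

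In ARNI against SHR, Cldn1 was at 86.3, 0.393 and 23.1 CPM in ARNI, which held both the highest and the lowest value of all 12 libraries, so its log2 fold change of 1.48 had an SE of 1.28 (adjusted p = 0.999). Without ARNI 1 it was -0.18. Itga9 was at 27.1, 48.5 and 42.6 CPM in ARNI beside 17.6, 30.3 and 24.8 CPM in SHR, with overlap (log2 fold change 0.79, SE 0.33, adjusted p = 0.999). Each ARNI library was above the SHR library of the same number, but these are different rats and no label pairs them. With the replicate number as a block the log2 fold change of Itga9 was 0.78 (SE 0.11, adjusted p = 0.844). Itga1 was at 23.5, 15.8 and 17.4 CPM beside 13.6, 13.0 and 18.2 CPM in SHR (0.42, SE 0.19, adjusted p = 0.999), and Cldn15 was at 14.6, 3.25 and 21.5 CPM (-0.74, SE 0.62, adjusted p = 0.999). Cldn22 and Itgb6, a chain that activates latent TGF-beta in epithelia, had log2 fold changes of 0.51 (SE 0.39, adjusted p = 0.999) and -0.64 (SE 0.53, adjusted p = 0.999).

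In ARNI against ARB, Itga1 had the smallest p. It was at 11.4, 14.03 and 8.17 CPM in ARB, so all ARNI libraries were above all ARB libraries (log2 fold change 0.82, SE 0.22, adjusted p = 0.993). Itga9 and Itga6 had log2 fold changes of 0.67 (SE 0.26, adjusted p = 0.993) and 0.61 (SE 0.25, adjusted p = 0.993), with overlapping values. Cldn22 was at 1.26, 0.707 and 0.814 CPM in ARNI, below all ARB libraries (log2 fold change -1.09, SE 0.48, adjusted p = 0.993). Itgae, which binds E-cadherin on epithelium, was at 6.45, 7.92 and 7.73 CPM in ARNI and at 9.84, 10.006 and 13.1 CPM in ARB (-0.52, SE 0.24, adjusted p = 0.993). Cldn1 had a log2 fold change of 0.91 (SE 1.24, adjusted p = 0.993) and, without ARNI 1, of -0.75.

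**Figure D5:**
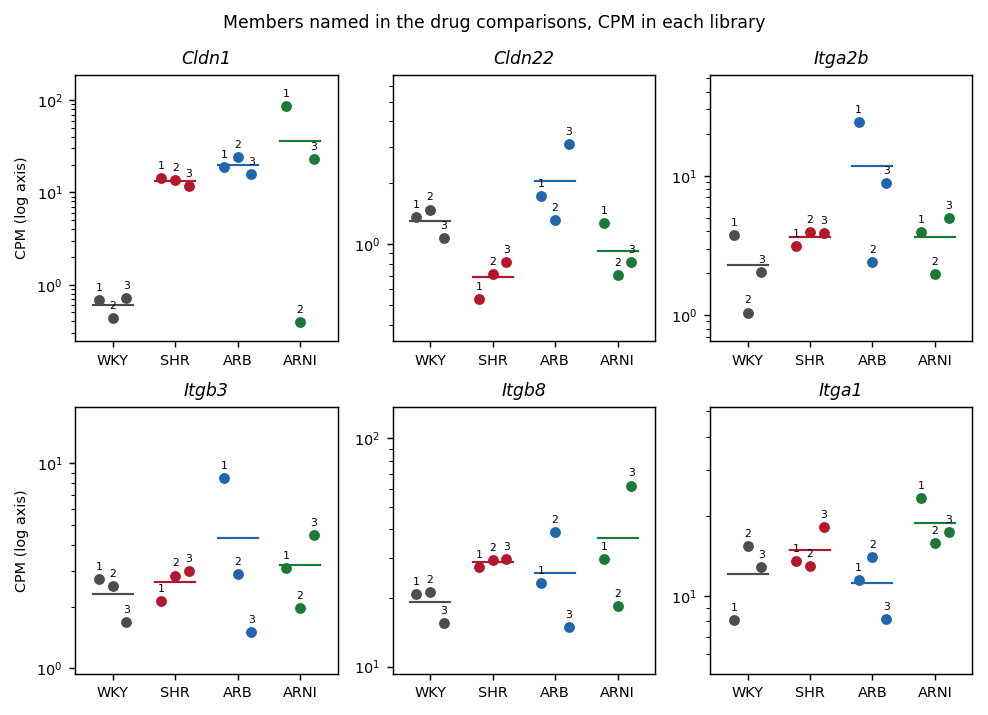
CPM (log axis) in every library of 6 members described in the drug groups, with 1 point per library labelled by replicate and a line at each group's mean. ARB 1 stands alone for Itga2b and Itgb3, ARNI 1 and ARNI 2 are the highest and lowest libraries for Cldn1, and ARNI 3 is the highest for Itgb8.

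Some members were highest in single libraries of the drug groups or stood out in 1 library. Itgb4 was at 99.3 CPM in ARB 2 and 156 CPM in ARNI 3, and Itgb8, a partner of Itgav that activates latent TGF-beta, was at 38.7 and 62.2 CPM there beside 14.9 to 29.7 CPM in the other 10. Adipocyte genes were high in the same 2 libraries, and the Schwann cell and neuron list was also highest in them, at 138 and 249 CPM. Cdh19, a cadherin of Schwann cells and their precursors, was at 21.5 CPM in ARNI 3, 18.7 CPM in SHR 2 and 17.7 CPM in ARB 2, and at 5.18 to 14.5 CPM elsewhere. The Schwann cell and neuron list summed to 111 CPM in SHR 2 and to 35.6 to 95.3 CPM in the other libraries. Cdh1, the E-cadherin of epithelia, reached 3.26 CPM in ARNI 3, 1.51 CPM in WKY 3 and 1.31 CPM in ARB 2 and stayed under 0.7 CPM in the rest. Cldn18, a claudin of lung and stomach, was at 1.51 CPM in WKY 3 and had 0 reads in each of the other 11 libraries, which allows up to 0.190 to 0.261 CPM. The lung genes Sftpc and Scgb1a1 were at 7.73 and 5.33 CPM in WKY 3 and at most at 0.138 CPM elsewhere.

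Cdh9 was removed by the filter on low counts, with at most 9 reads in a library. It was at 0.767, 0.609 and 0.533 CPM in WKY and at 0 to 0.0788 CPM in the other 9 libraries, ARNI 2 included, and it was called lower in SHR by DESeq2 and by edgeR without the filter. Itga8, a receptor chain for nephronectin, ranged from 2.38 to 8.26 CPM with overlapping groups. Cldn3 and Cldn10 stayed at or under 0.267 CPM in every library. In all, 25 members passed the filter in no comparison of groups.

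The partners of these proteins were followed in 5 lists with 84 genes, namely catenins, integrin adaptors, other tight junction genes, desmosome genes and integrin ligands other than collagens. Between SHR and WKY, 2 of the 69 tested were called higher (2.90%, beside the 5.54% of all genes given above) and 1 lower (1.45%, beside 3.35%). Vcam1, a ligand of the Itga9 and Itga4 integrins on endothelium, was at 12.3, 13.7 and 8.93 CPM in WKY and at 57.5, 21.2 and 101 CPM in SHR (log2 fold change 2.198, SE 0.50, adjusted p = 0.0293). Pkp1, a plakophilin of epithelial desmosomes, was at 0.0852 to 0.261 CPM in WKY and 1.02 to 2.44 CPM in SHR (2.94, SE 0.59, adjusted p = 0.0212). Lama5, a laminin chain of basement membranes bound by Itga3, Itga6 and Itga7 integrins, was at 95.8, 111 and 117 CPM in WKY and at 46.2, 61.8 and 46.6 CPM in SHR (-1.19, SE 0.18, adjusted p = 0.00971). None of the 5 catenins, 20 adaptors or 13 tight junction genes tested was called, and none of the 84 was called in a drug comparison.

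On the chamber score, 18 of 72 partner genes tested had a positive slope (25.0%, beside 11% of all genes) and 5 a negative one (6.94%, beside 13.6%). Among adaptors, Parvb had the most negative (-0.11, SE 0.01, adjusted p = 0.00110), at 170 CPM in ARNI 2 and 62.7 to 130 CPM in the other 8, and Lims2 and Tns1 were also negative, while Tln1, Vcl, Ilk, Zyx and Bcar1 were positive. Of the desmosome genes Dsp was negative (-0.07, adjusted p = 0.0243) and Dsg2, Pkp1 and Pkp4 were positive. Among tight junction genes F11r, Cgn and Cxadr were positive, as were the ligands Fn1, Lamb3, Ecm1, Edil3, Icam1 and Vcam1. Vtn, which encodes vitronectin, was the 1 negative ligand (-0.31, SE 0.07, adjusted p = 0.0141), at 53.5 CPM in ARNI 2 and 1.64 to 36.6 CPM in the others.

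The order of 13542 genes over the 12 libraries, members included, was compared with that of Cldn1. The 5 most alike that are not members were Fntb (Spearman rho 0.97), Kcnc4 (0.96), Spock1 (0.96), Hacd2 (0.95) and Cerk (0.94). The points share the libraries, their depth and their chamber composition, and the values are a description. Fntb was at 9.67 CPM in ARNI 2, 10.4 to 12.3 CPM in WKY and 13.7 to 29.0 CPM in the other 8 libraries. Like Cldn1, the other genes except Spock1 had their 4 lowest values in the WKY libraries and ARNI 2. For Spock1, WKY 3 at 3.64 CPM lay just above SHR 3 at 3.59 CPM.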

How the data were processed

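Left atrial RNA of 12 rats was sequenced by the authors, who filtered reads with SOAPnuke, aligned them with HISAT2 (2.0.4) and Bowtie2 (2.2.5) and deposited RSEM expected counts per gene, which are estimated and not normalized. The submitters' processing notes name the build Rnor_6.0. The deposited table lists 37246 genes, of which 21239 had counts, and 23.6% of the values were not whole because RSEM divides reads that match several genes (21.9% of the members' values). Its other columns hold the authors' own log2 fold change and p-value of SHR against WKY from DESeq2, and these were not used.

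CPM was computed from the expected counts. For tests they were rounded, low genes were removed with filterByExpr and TMM factors were applied. The quasi-likelihood test of edgeR (version 4.0.16, with limma 3.58.1 and R 4.3.3) then compared the 6 libraries of each pair over all genes, with Benjamini-Hochberg adjustment and the study's thresholds (absolute log2 fold change of at least 1, adjusted p of at most 0.05). The chamber slope was fitted in the 9 SHR-strain libraries with group as a factor. DESeq2 1.42.0 was an alternative. Python 3.11.15, pandas 2.3.3, numpy 2.4.6 and matplotlib 3.10.9 were used for tables and plots. The tests were checked on simulated data.

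Libraries were grouped by the name in their title. Total counts were 11252361 to 11730665 in WKY, 12683159 to 14953507 in SHR, 12614041 to 15122151 in ARB and 12721085 to 15823525 in ARNI, so that 0 reads allow a level of up to 3 reads, or 0.190 to 0.267 CPM, a limit for counting error only. All pairs of replicates differed by more than sampling noise. Same-numbered libraries of ARNI and SHR deviated together (correlations of 0.51, 0.46 and 0.19 over 14452 genes), those of SHR and WKY did not (0.03, -0.05 and -0.07), and no label says that numbers were shared. Since these come from the data and not the labels, the unpaired fits were kept.

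Named are the members called in a comparison, the 5 with the smallest p among those not called, members with a slope, Cldn1, a list of members of known role, and the 5 genes most like Cldn1. The members, the 5 lists of partner genes and the 18 lists of marker genes were chosen with earlier results of these data known, and not every gene counted in them is reported by name here. All 72 members were found by identifier in RefSeq's gene table of GRCr8, which was used for names, and promoters were taken from RefSeq with that build's coordinates, which are not those of the counts.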

Additional observations from a re-analysis of the deposited data

How the results depend on the processing

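The 8 members called between SHR and WKY were the same 8 with RLE scaling and with library totals alone, and all 8 were among the 9 called without a filter on low counts and the 12 called by DESeq2. DESeq2 added Cdh9, Cldn19, Itga7 and Itgal, and over all genes it called 888 higher and 713 lower of 15401. Over all genes, library totals alone moved the median log2 fold change from 0.01 to 0.15 and the split of called genes from 764 higher and 462 lower to 985 and 363. A fit of 12 libraries called 3 (Cdh15, Cdh23 and Itga9), the same fit with the chamber score 0, and adjusted p alone 14. Of all 14452 genes, the fit of 12 libraries called 399 higher and 180 lower, and with the chamber score 79 and 18. Leaving out 1 library gave 3 to 14, and the 14 without SHR 2, the SHR library that stood apart, include all 8. Calls over all genes in these fits ranged from 253 higher and 95 lower to 1109 and 1096. With the replicate number as a block (replicate block) 6 were called, all among the 8, and 8 in place of 12 members had a slope, 7 of them shared. Over all genes, the block gave 461 called higher and 220 lower of 13794, and 991 positive and 1299 negative slopes of 14278. Since only ARNI and SHR libraries deviated together by number, the block pairs no samples in the other comparisons, and it changed no call in ARNI against SHR. With 1 of 9 libraries left out, 5 (without ARNI 2) to 13 members (without ARNI 3) had a slope. Over all genes, those fits gave 480 positive and 871 negative slopes of 14564, and 1757 and 1992 of 14472. In the drug comparisons no alternative called a member. The log2 fold change between SHR and WKY reversed with the chamber score in the fit for Cdh13 (-0.25), Cdh22 (1.501), Itga7 (0.52), Itgal (0.53) and Cdh11 (-1.56), none of them past the threshold there. That of Cldn5, at 0.04, reversed to -0.16 with the replicate block and to -0.39 without SHR 2, the library that stood apart, and it ranged from -0.39 to 0.46 with 1 library left out (below 0 without WKY 1, WKY 2, SHR 2 or SHR 3). That of Cldn1 in ARNI against SHR ranged from -0.18 without ARNI 1 to 2.06 without ARNI 2, and in ARNI against ARB from -0.75 to 1.48 without the same libraries, where the replicate block gave -0.18. The cause was not tested. Depth limits the 19 members under 10 reads, and of these Cdh9 was called by DESeq2 and without the filter.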

Other observations

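In the smooth muscle and pericyte list 5 of 6 genes were lower in every SHR library than in every WKY library, and the list summed to 293 to 358 CPM in WKY and 147 to 240 CPM in SHR. Fibroblast genes overlapped in 6 of 6 cases, with sums of 1210 to 1384 CPM in WKY and 840 to 2417 CPM in SHR. SHR 3, which had the highest Cdh11 (197 CPM), also had the highest fibroblast sum. Other libraries went the other way. ARNI 1, with Cdh11 at 145 CPM, had the lowest fibroblast sum (758 CPM). ARB 3, with the lowest Cdh11 (14.3 CPM), had a fibroblast sum of 1736 CPM. The smooth muscle sum reached 745 CPM in ARNI 3, the library with the highest Itgb4 and Itgb8.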
